A study of Mus musculus with 8 samples.

Results

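The genes that build sterols and fatty acids were followed in Paneth cells sorted from mouse small intestine. The 39 genes were chosen by symbol, as the genes of these pathways and their regulators, out of 55414 rows of the count table, and each matched 1 Ensembl ID. They were grouped by role into 5 regulators of the SREBP system, 19 genes of sterol synthesis and transport, 7 genes of fatty acid synthesis and its supply, and 8 genes of desaturation and elongation. The TG group held 4 libraries with the genotype DT TG, whose titles name diphtheria toxin, and 4 WT libraries came from mice of the wild type. The toxin stops protein synthesis in a cell that holds it. All 8 libraries came from cells collected by FACS as purified Paneth cells. Apart from the toxin in the TG titles, no treatment, age or time point is named for either group. The methods describe sorted Paneth cells from single C57BL/6J mice, and in each group the libraries with Y-linked counts cannot share a mouse with those without them. No label ties each library to an animal, so p-values measure the spread between these libraries, part of which may be technical. The promoter that drives the toxin is not named in the labels, and toxin RNA in the sorted cells was not analysed here, which limits what TG can model. Set against WT, the TG libraries ask how purified cells differ after mature Paneth cells were depleted.

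Cholesterol is built from acetyl-CoA through mevalonate, farnesyl diphosphate, squalene and lanosterol, and fatty acids are built from acetyl-CoA through malonyl-CoA. Both routes are switched on by SREBP transcription factors, which wait in the endoplasmic reticulum bound to SCAP. When membrane sterol falls, SCAP carries SREBP to the Golgi, where it is cut to its active form, and when sterol is plentiful INSIG proteins hold SCAP back. The intestinal epithelium is a site of sterol synthesis, and Paneth cells keep an extensive endoplasmic reticulum for secretion of antimicrobial proteins.

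Most sterol synthesis genes fell in TG, with 12 of 19 called lower and 0 higher. That count was 3 without TG replicate 1 and with total counts, 5 without TG replicate 2, 7 without WT replicate 3 or WT replicate 4, and 17 without WT replicate 2, and it was 7 within the libraries with Y-linked counts and 7 within those without them. Of the 39 genes, 37 passed the filter on low counts, and edgeR called 16 lower and 1 higher in TG at an adjusted p below 0.05, with 20 not called. Over all 11929 genes tested, 9.65% were called lower and 8.26% higher. The gene called higher was Acacb, and those called lower were Srebf1, Pmvk, Mvd, Idi1, Fdps, Fdft1, Sqle, Lss, Msmo1, Hsd17b7, Ebp, Sc5d, Dhcr7, Fasn, Elovl1 and Elovl6. The log2 fold change of TG over WT was below 0 for 33 of the 37, with a median of -0.44, against a median of 0.01 over all genes tested. For 17 of the 37, every TG library had a lower CPM (counts per 1e+06 counts, with library sizes scaled by edgeR's TMM factors) than every WT library, and for 0 of them a higher one, while among all tested genes the groups were apart in this way for 12.0% (lower) and 10% (higher). In bulk RNA, fewer cells of a type and less RNA per cell cannot be told apart.

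**Figure D1:**
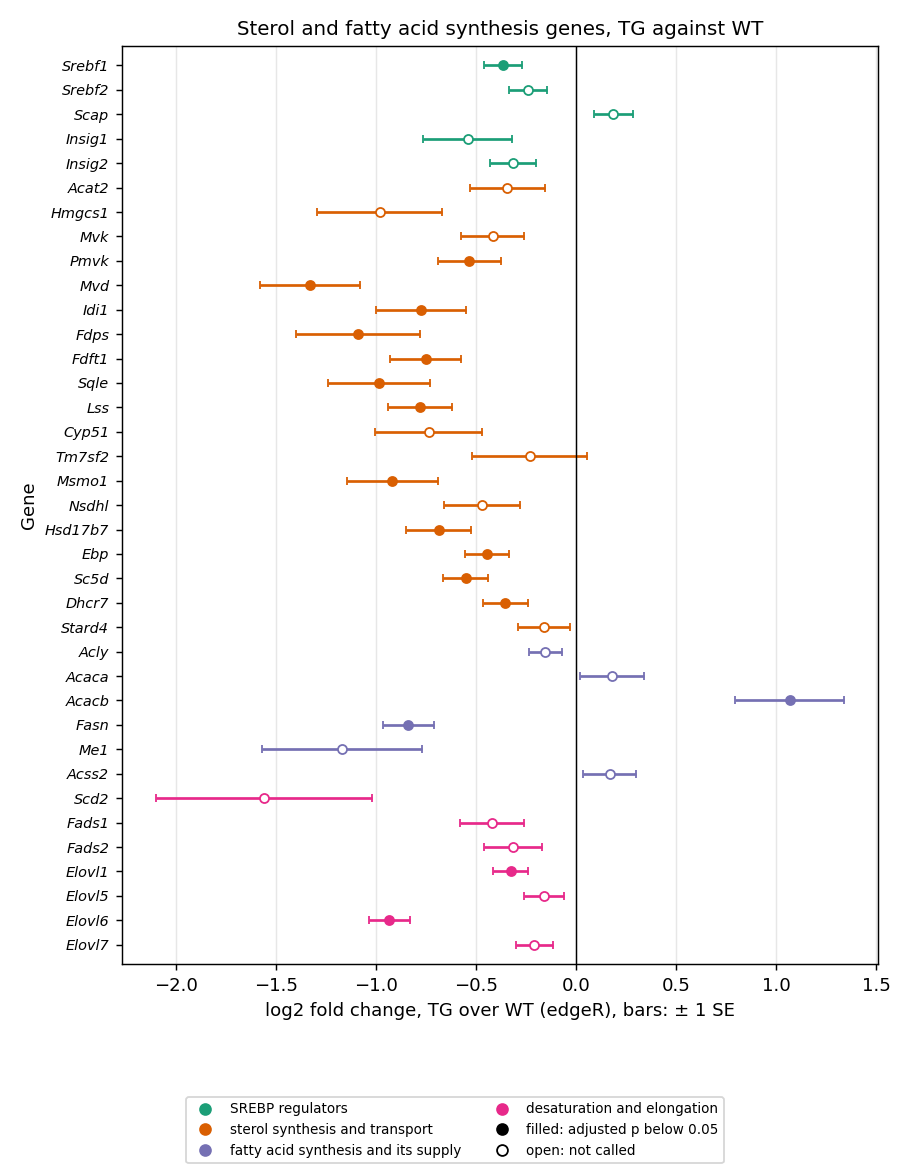
Log2 fold change of TG over WT (x axis) for the 37 tested genes (y axis), grouped by colour into 4 roles. Points are edgeR estimates from 4 libraries a group, bars are ± 1 SE, and filled points have an adjusted p below 0.05. All 19 sterol genes lie left of 0, and Acacb, at 1.07, is the filled point farthest to the right.

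Calls were also counted by role, against 9.65% called lower and 8.26% higher over all genes tested. Among regulators, 1 of 5 was called lower and 4 folds were below 0, with a median of -0.32. Among sterol genes, 12 of 19 were called lower, all 19 folds were below 0, and the median was -0.69. Of the 6 tested genes of fatty acid synthesis, 1 was called higher and 1 lower, with a median of 0.01. Of the 7 tested genes of desaturation and elongation, 2 were called lower and all 7 folds were below 0, with a median of -0.33. Differences between the roles were not tested. With 5 to 7 genes in a list, 1 or 2 calls are not read as more than the shares over all genes. When library sizes were left as total counts, without TMM factors, the median of all genes moved from 0.01 to 0.12, and 5 of the 37 genes were called lower and 1 higher, so that higher genes made up 16.7% of the calls against 5.88%. With that scaling 2.2% of all genes tested were lower and 6.60% higher. The median over the 37 genes was -0.32 with that scaling, and all 19 sterol folds stayed below 0.

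Single libraries moved the number of calls. Without TG replicate 1, 5 genes were called lower (4.61% of all genes tested) and 1 higher, and the 11 lost calls had edgeR adjusted p from 0.05002 to 0.146. Without TG replicate 2, 7 were lower (4.72% of all genes) and 0 higher, and the 10 lost calls, Acacb among them, had adjusted p from 0.0532 to 0.116. At an unadjusted p below 0.05, that fit had 1 of the 37 tested members higher and 23 lower, and the share of all genes at that p is not given here. Without WT replicate 2, 24 were lower (9.76% of all genes), the 8 gained being Srebf2, Insig1, Acat2, Hmgcs1, Mvk, Cyp51, Nsdhl and Fads1. The other 5 libraries, left out in turn, gave 11 to 16 lower genes (7.04 to 8.91% of all genes) and 1 higher gene each. Mvd, Lss, Sc5d, Fasn and Elovl6 kept their call whichever library was left out, with largest adjusted p of 0.0269, 0.0277, 0.0278, 0.00786 and 0.00223. Pmvk, Idi1 and Dhcr7 each lost it in 6 of 8 such fits, Sqle in 5, Fdps and Msmo1 in 4, Srebf1, Fdft1 and Elovl1 in 2, and Hsd17b7, Ebp and Acacb in 1. Of the 20 genes not called, 12 were called in at least 1 of 19 alternative settings, which were Hmgcs1 in 7, Scd2 in 6, Cyp51 in 5, Insig1, Me1 and Fads1 in 4, Mvk in 3, Srebf2, Insig2 and Nsdhl in 2, and Acat2 and Fads2 in 1.

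Total counts were 13107397 to 16218434 in TG and 13601510 to 15018711 in WT, and the 39 genes took 0.144 to 0.181% of them in TG and 0.169 to 0.282% in WT. Replicates 1 and 2 of both groups had 0 Y-linked counts, and replicates 3 and 4 had 897 to 1564. Alpha-defensin genes and Lyz1, which define Paneth cells, took 43.9 to 48.0% of the counts in TG and 42.0 to 49.8% in WT, and all 10 Paneth markers passed the filter, with 3 lower in TG (Mmp7, Ang4 and Mptx2). Of 12 tested enterocyte markers, 5 were higher in TG (Alpi, Apob, Mttp, Apoa4 and Slc5a1), and their list summed to 852 to 1079 CPM in TG and 738 to 860 CPM in WT. The goblet list summed to 4465 to 6838 CPM in TG and 5868 to 6995 CPM in WT, with 0 of 7 called. In the stem, enteroendocrine and tuft lists, Axin2 was higher and Smoc2 and Tac1 were lower, and the stroma list summed to at most 0.802 CPM. The immune list summed to 60.98 to 196 CPM in TG and 281 to 471 CPM in WT, with Cd74 making 81.4% of the mean sum in TG and 95.5% in WT (log2 fold change -1.84 ± 0.52, SE, adjusted p 0.0578). Lyz2 averaged 19.5 CPM in TG and 14.5 CPM in WT, and Ptprc averaged 0.291 and 0.321 CPM. Of 6 adipocyte markers, Adipoq, Plin1, Fabp4 and Lep were at 0 in all 8 libraries, Plin4 had 1 count in 1 WT library, and Cidec averaged 0.310 CPM in TG and 0.125 CPM in WT. Mitochondrial genes took 1.15 to 1.53% of the counts in TG and 0.566 to 1.10% in WT. The part of these differences in the results on lipid genes was not tested.

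The promoters of all 39 genes were searched for letters of the sterol regulatory element, the DNA sequence that SREBPs bind, and those with a match are printed. In the 250 bases before the start of the canonical transcript, the letters TCACNCCAC, on either strand, were in 1.08% of 11294 tested protein-coding genes and in 4 of the 39 (10.3%). These were Hmgcs1, Acaca, Fasn and Acss2, whose windows of 29 bases on GRCm39 were chr13:120151740-120151768, chr11:84063840-84063868, chr11:120715063-120715091 (minus strand) and, with 2 matches, chr2:155359619-155359647 and chr2:155359672-155359700. Each is written 5′ to 3′ on the strand of its gene, and capitals mark the match.
Hmgcs1: cgtcaccgtcTCACCCCACttcccaggtc
Acaca: acaggcacacTCACACCACaccctgggtg
Fasn: cgcgcgggcaTCACCCCACcggcggcggc
Acss2 window 1: cctaacttggTCACTCCACagccttgcct
Acss2 window 2: ctacaccccaTCACTCCACgggcccgcct
The first base of the match lay 232 bases before the start in Hmgcs1, 98 in Acaca, 146 in Fasn, and 239 and 186 in Acss2. Of these 4 genes, Fasn alone was called lower.

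The letters CCAAT, bound by NF-Y, which works beside SREBP at many sterol genes, were on either strand in the window of 36.3% of the 11294 genes, 19 of the 39 (48.7%) and 14 of the 19 sterol genes (73.7%). The letters CACGTG, an E-box that SREBPs can also bind, were in 8.02% of the 11294, 5 of the 39 (12.8%) and 2 of the 19 sterol genes (10.5%). TCACNCCAC was in 1 of the 19 sterol genes (5.26%). Of the 7 genes of fatty acid synthesis, 3 had TCACNCCAC (42.9%) and 1 had CCAAT (14.3%). Overlaps between motifs were not removed. Sqle, called lower, is printed as an example with 2 CCAAT matches and no TCACNCCAC match, from bases 250 to 21 before the start, at chr15:59186632-59186861 (plus strand) on GRCm39. Capitals mark CCAAT or its reverse complement, ATTGG.
Sqle: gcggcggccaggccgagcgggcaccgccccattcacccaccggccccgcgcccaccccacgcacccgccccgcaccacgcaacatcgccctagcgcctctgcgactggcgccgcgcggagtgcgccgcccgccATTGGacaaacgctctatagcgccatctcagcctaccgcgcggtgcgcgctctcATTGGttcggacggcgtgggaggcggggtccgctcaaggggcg
These matches describe letters in a window, and binding was not measured.

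Of the regulators, Srebf1 alone was called. Srebf1 (ENSMUSG00000020538, chr11:60089913-60113407, minus strand) encodes the SREBP best known for fatty acid genes. Its level was 53.3, 54.3, 62.1 and 53.3 CPM in TG replicates 1 to 4 and 77.7, 61.01, 78.2 and 70.6 CPM in WT replicates 1 to 4, the order kept for every gene. TG replicate 3 was the highest of its group and overlapped WT replicate 2, while the other TG libraries lay below all WT libraries. The log2 fold change was -0.37 ± 0.10 (SE, n = 4 a group), a fall of 1.29-fold with an edgeR adjusted p of 0.0184. Srebf2 (ENSMUSG00000022463, chr15:82031382-82093201, plus strand), whose product favours sterol genes, measured 147, 147, 159 and 165 CPM in TG and 196, 156, 179 and 199 CPM in WT. WT replicate 2 lay among the TG libraries, and the log2 fold change of -0.24 ± 0.09 was not called (adjusted p 0.0931). The call of Srebf1 was lost within the libraries with Y-linked counts and within those without them, at log2 fold changes of -0.36 ± 0.12 and -0.37 ± 0.15 (adjusted p 0.1498 and 0.139).

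Insig1 (ENSMUSG00000045294, chr5:28276315-28283668, plus strand), which holds SCAP in the endoplasmic reticulum and is itself an SREBP target, measured 63.6, 77.0, 62.8 and 55.9 CPM in TG. In WT it measured 69.7, 65.5, 119 and 123 CPM. WT replicates 3 and 4 were far above their group mates, which lay within the TG range. On the log2 scale the fold was -0.54 ± 0.22 with an adjusted p of 0.129. Without Y-linked counts the fold was 0.06, and with them it was -1.03, the difference having an unadjusted edgeR p of 3.76e-05 and an adjusted p of 0.0926. Insig2, the paralog with the same role, averaged 21.7 ± 2.26 CPM in TG and 27.0 ± 3.88 CPM in WT (SD, n = 4 each), and its fold on the log2 scale was -0.32 (adjusted p 0.0734). Scap, the escort itself, was the regulator with a fold above 0, at 0.19 (adjusted p 0.202).

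The first enzymes of the mevalonate route, which make and phosphorylate mevalonate, were not called. Hmgcs1 (ENSMUSG00000093930, chr13:120151915-120170470, plus strand), cytosolic HMG-CoA synthase, measured 115, 132, 144 and 152 CPM in TG and 164, 175, 415 and 320.2 CPM in WT. All TG libraries lay below all WT libraries, but WT replicates 3 and 4 stood far above WT replicates 1 and 2. The log2 fold change of -0.98 ± 0.31 had an edgeR adjusted p of 0.0707 and was called in 7 of 19 alternative settings. Of the 75-base stretches of Hmgcs1, 16.5% were shared with other genes. Baz1a, among them, was called lower itself (log2 fold change -0.47, edgeR adjusted p 0.00669). Acat2, a thiolase that joins acetyl-CoA units, and Mvk, mevalonate kinase, had folds of -0.34 and -0.42 with adjusted p of 0.217 and 0.0805. Of the 75-base stretches of the Acat2 transcript, 38.9% were shared with other genes, Tcp1 on the opposite strand among them, which was called lower itself (log2 fold change -0.29). How reads that fit more than 1 gene were counted, and whether strand was used, is not given in the sources used here.

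Pmvk (ENSMUSG00000027952, chr3:89361758-89376323, plus strand), phosphomevalonate kinase, measured 5.25, 7.24, 8.46 and 6.76 CPM in TG and 10.7, 8.56, 10.1 and 10.9 CPM in WT. The highest TG library, replicate 3, lay just under the lowest WT library. It fell 1.45-fold (log2 -0.53 ± 0.16, adjusted p 0.0321). Mvd (ENSMUSG00000006517, chr8:123160336-123170324, minus strand), which removes a carboxyl group from mevalonate diphosphate to give the isoprene unit, measured 4.50, 5.97, 8.06 and 6.38 CPM in TG and 9.90, 12.5, 21.3 and 19.1 CPM in WT. Its groups did not overlap, and WT replicates 3 and 4 were the highest. The log2 fold change of -1.33 ± 0.25, a 2.52-fold fall with an adjusted p of 0.00550, was the lowest among the 17 called genes of the 39 and was called in all 19 alternative settings.

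Idi1 (ENSMUSG00000058258, chr13:8935537-8942487, plus strand), the isomerase of the isoprene unit, measured 5.31, 4.57, 6.43 and 4.63 CPM in TG and 9.42, 5.01, 11.4 and 10.3 CPM in WT. WT replicate 2 lay inside the TG range, and the other WT libraries lay above it. The fall was 1.71-fold (log2 -0.78 ± 0.22, adjusted p 0.0292). Fdps (ENSMUSG00000059743, chr3:89000888-89019213, minus strand), which joins isoprene units into farnesyl diphosphate, measured 1.06, 0.703, 1.75 and 1.29 CPM in TG and 2.24, 1.88, 3.54 and 2.68 CPM in WT. No TG library reached the lowest WT library, at 10 to 53 counts a library. It fell 2.13-fold (log2 -1.09 ± 0.31, adjusted p 0.0269). Of its 75-base stretches, 34.7% were shared with 4 pseudogenes, none of which averaged above 0.197 CPM in a group, and 24.2% of those of Idi1 were shared with pseudogenes that averaged at most 0.0156 CPM.

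The enzymes that make squalene and close it into lanosterol all fell. Fdft1 (ENSMUSG00000021273, chr14:63382189-63417027, minus strand), squalene synthase, measured 24.3, 27.6, 32.9 and 26.4 CPM in TG and 39.8, 33.0, 57.6 and 57.2 CPM in WT. TG replicate 3 came closest to WT replicate 2, without overlap. It fell 1.69-fold (log2 -0.75 ± 0.18, adjusted p 0.0155). Ctsb overlaps 24.8% of its exon bases on the opposite strand, and averaged 154 CPM in TG and 162 CPM in WT, with a fold of -0.07 that was not called. Of the 75-base stretches of Fdft1, 39.1% were shared with other genes, Ctsb among them. Sqle (ENSMUSG00000022351, chr15:59186869-59203043, plus strand), squalene epoxidase, whose promoter is printed above, measured 23.7, 23.9, 37.9 and 32.4 CPM in TG and 45.8, 40.1, 78.6 and 69.1 CPM in WT. Its groups did not overlap, and in both of them replicates 3 and 4 were the higher libraries. It fell 1.98-fold (log2 -0.98 ± 0.25, adjusted p 0.0331). Washc5 on the opposite strand, which overlaps 5.29% of its exon bases and shares 14.5% of its 75-base stretches, had a fold of 0.07. Lss (ENSMUSG00000033105, chr10:76367298-76392976, plus strand), lanosterol synthase, measured 16.4, 16.7, 23.3 and 21.6 CPM in TG and 26.9, 28.2, 41.0 and 38.0 CPM in WT. Here too the groups were apart and replicates 3 and 4 were the higher pair in each. Its 1.72-fold fall (log2 -0.78 ± 0.16, adjusted p 0.00658) was called in all 19 alternative settings.

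**Figure D2:**
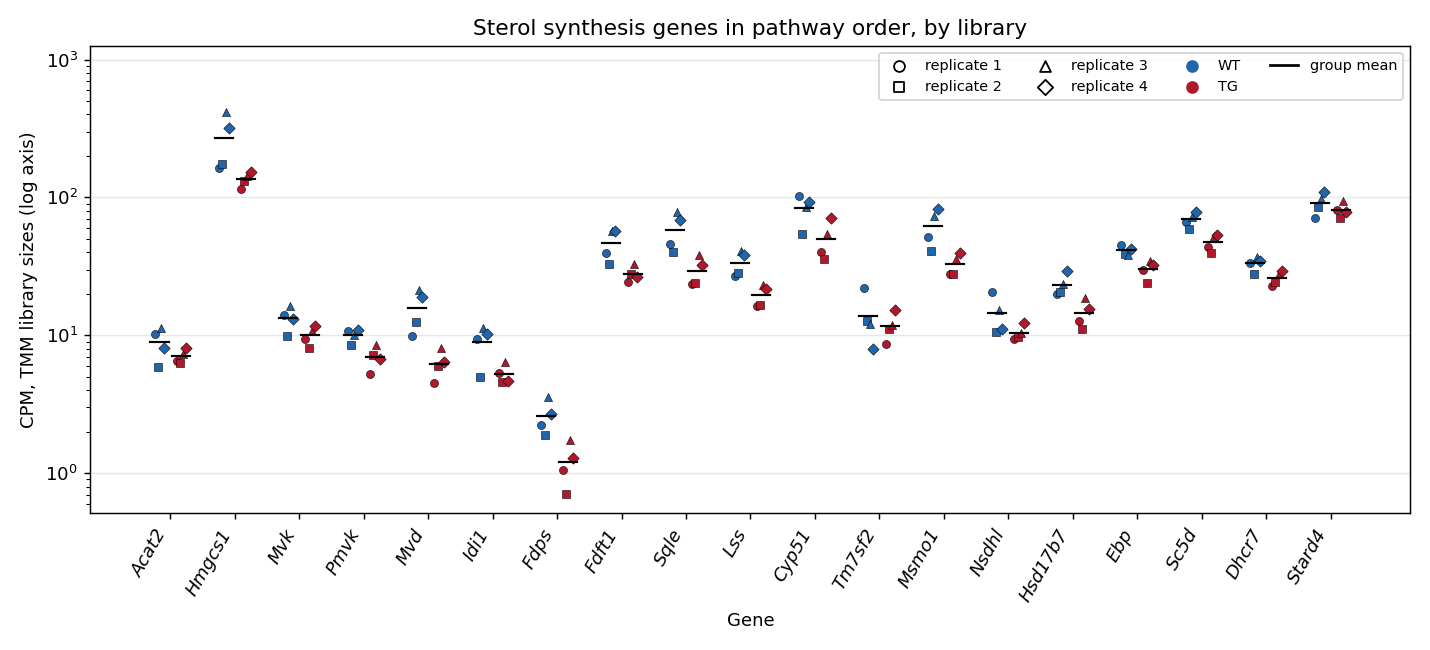
CPM (y axis, log scale) of the 19 sterol genes (x axis, in pathway order) in each WT library (blue) and TG library (red), with the replicate number as marker shape and the group mean as a bar. For 11 of the 19 genes the red points lie wholly below the blue ones, and Hmgcs1 is the highest and Fdps the lowest gene.

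From lanosterol to cholesterol, 5 of 8 enzymes were called lower. Msmo1 (ENSMUSG00000031604, chr8:65170603-65186830, minus strand), which oxidises the methyl groups to be removed, measured 27.7, 28.0, 35.9 and 39.5 CPM in TG and 51.3, 40.6, 73.7 and 81.8 CPM in WT. TG replicate 4 came just under WT replicate 2, and the groups did not overlap. The fall was 1.89-fold (log2 -0.92 ± 0.23, adjusted p 0.0264). Hsd17b7 (ENSMUSG00000026675, chr1:169777093-169796813, minus strand), a sterol ketone reductase, measured 12.7, 11.1, 18.5 and 15.4 CPM in TG and 19.96, 20.5, 23.7 and 29.1 CPM in WT. All TG libraries lay below WT, by a small gap at TG replicate 3. The fall was 1.61-fold (log2 -0.69 ± 0.16, adjusted p 0.0121).

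Ebp (ENSMUSG00000031168, chrX:8050773-8059795, minus strand), the isomerase that moves the ring double bond, measured 29.8, 24.0, 34.8 and 32.4 CPM in TG and 45.1, 39.1, 38.3 and 42.4 CPM in WT. WT replicates 1 to 4 were close to each other and all above TG. It fell 1.36-fold (log2 -0.44 ± 0.11, adjusted p 0.0147). Sc5d (ENSMUSG00000032018, chr9:42162891-42175605, minus strand), the sterol desaturase, measured 43.7, 39.4, 52.4 and 53.1 CPM in TG and 66.6, 59.1, 72.2 and 78.9 CPM in WT. The groups did not overlap, and TG replicate 2 was the lowest. Its 1.47-fold fall (log2 -0.55 ± 0.11, adjusted p 0.00537) was called in every alternative but total counts, where the adjusted p was 0.0542. Dhcr7 (ENSMUSG00000058454, chr7:143376740-143402149, plus strand), which reduces the last ring double bond on the way to cholesterol, measured 22.7, 24.3, 27.9 and 29.1 CPM in TG and 33.2, 27.7, 37.2 and 34.6 CPM in WT. WT replicate 2 lay within the TG range. The fall was 1.28-fold (log2 -0.35 ± 0.11, adjusted p 0.0397).

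The other 4 sterol genes were not called, with folds below 0. Cyp51, which removes a methyl group of lanosterol, averaged 50.3 ± 16.1 CPM in TG and 83.8 ± 20.8 CPM in WT (SD, n = 4 each), and its fold on the log2 scale was -0.74 ± 0.27 (SE, adjusted p 0.0987). It was called with the replicate block, with the term for Y-linked counts, by limma voom, without TG replicate 4 and without WT replicate 2, with a smallest adjusted p of 0.00569. Genes on the opposite strand overlap 28.3% of its exon bases, and Akap9, the most abundant of them, averaged 124 CPM in TG and 93.6 CPM in WT. Nsdhl, a sterol dehydrogenase, had a fold of -0.47 (adjusted p 0.107), and its WT libraries spread from 10.6 to 20.7 CPM against 9.37 to 12.2 CPM in TG. Tm7sf2, a sterol reductase, had a fold of -0.23 (adjusted p 0.616), which was -0.81 in the libraries without Y-linked counts and 0.41 in those with them (interaction adjusted p 0.748). Stard4, which carries cholesterol between membranes, had a fold of -0.16 (adjusted p 0.418).

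The sterol result was also read within the libraries with and without Y-linked counts. Summed over the 19 genes, levels were 488, 487, 621 and 618 CPM in TG replicates 1 to 4, and 765, 669, 1122 and 1038 CPM in WT. Replicates 3 and 4 were the higher pair in both groups, and the highest TG library was below the lowest WT library. The TG mean was 68.0% of the WT mean in libraries without Y-linked counts and 57.4% in those with them. Over all 39 genes, 10 were called lower and 1 higher without Y-linked counts, and 11 lower and 0 higher with them, from 2 libraries a group each. Over all genes tested, 5.29% were lower and 4.15% higher without Y-linked counts, and 0.857% lower and 0.940% higher with them. The interaction was called by edgeR for 0 of the 37 genes and 3 of all genes. At an unadjusted p below 0.05 it gave 5 of the 37, which were Insig1, Hmgcs1, Fdft1, Tm7sf2 and Scd2. The share of all genes below that p is not given here, so these 5 are not read as more than that share. Hmgcs1 had a fold of -0.45 without and -1.32 with Y-linked counts (interaction adjusted p 0.338), Fdft1 one of -0.49 and -0.95 (adjusted p 0.858), and Scd2 one of -2.06 and -1.35 (adjusted p 0.684).

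**Figure D3:**
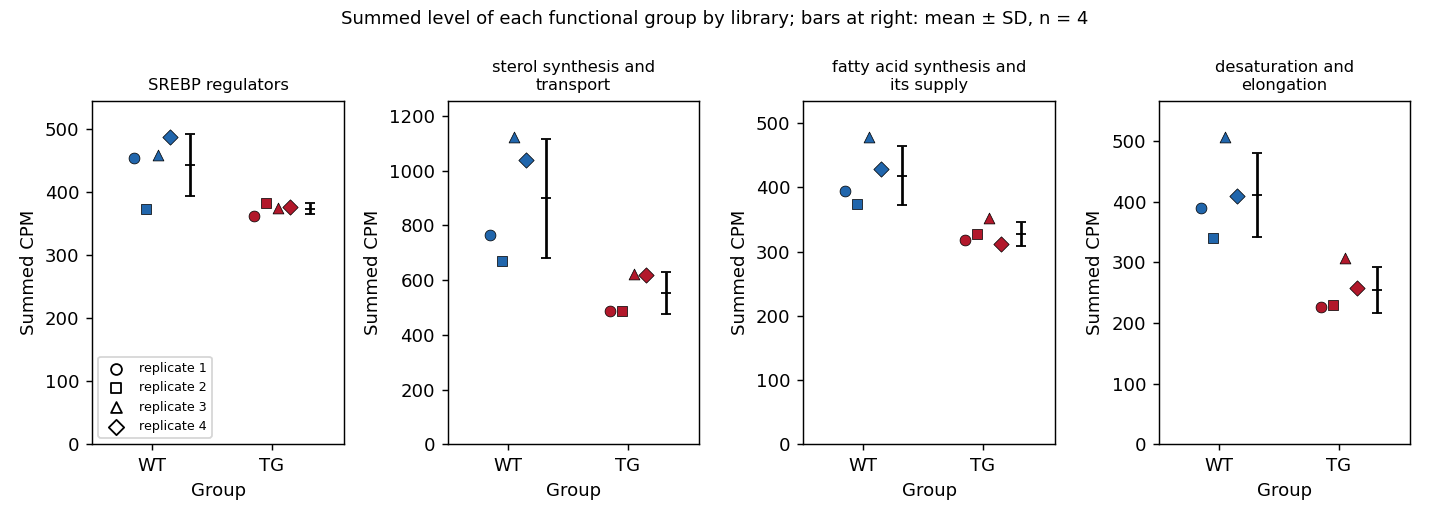
Summed CPM (y axis, from 0) of each role by library (points, with the replicate number as marker shape) for WT and TG (x axis), with mean ± SD of 4 libraries at the right of each group. TG lies wholly below WT for sterol synthesis, fatty acid synthesis and desaturation and elongation, and WT replicate 2 lies among TG for the regulators.

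Among genes of fatty acid synthesis, Fasn fell and Acacb rose. Fasn (ENSMUSG00000025153, chr11:120696672-120715995, minus strand), fatty acid synthase, builds palmitate from acetyl-CoA and malonyl-CoA. It measured 92.7, 101, 117 and 88.5 CPM in TG and 163, 149, 226 and 178 CPM in WT. The groups were well apart, with TG replicate 3 the highest of its group and WT replicate 3 of its own. The fall was 1.79-fold (log2 -0.84 ± 0.13, edgeR adjusted p 0.00134) and was called in all 19 alternative settings. Acacb (ENSMUSG00000042010, chr5:114284307-114388822, plus strand), the acetyl-CoA carboxylase at mitochondria, whose malonyl-CoA restrains fatty acid oxidation, measured 5.69, 7.94, 3.21 and 8.89 CPM in TG and 2.71, 3.06, 2.81 and 3.57 CPM in WT. TG replicate 3 lay among the WT libraries, and the other TG libraries lay above all of them. It rose 2.10-fold (log2 1.07 ± 0.27, adjusted p 0.0173), and was not called by limma voom (adjusted p 0.0861), without TG replicate 2 (0.0623) or within the libraries with Y-linked counts (0.345).

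Acaca (ENSMUSG00000020532, chr11:84020476-84292477, plus strand), the cytosolic carboxylase that supplies fatty acid synthase, measured 13.9, 16.4, 17.1 and 15.6 CPM in TG and 9.42, 13.1, 18.3 and 14.6 CPM in WT. WT libraries spread wider than TG and enclosed them. The log2 fold change was 0.18 ± 0.16 with an adjusted p of 0.461. Of its 75-base stretches, 47.4% were shared with the pseudogene Gm5182, which averaged at most 0.0899 CPM in a group. Acly, which makes cytosolic acetyl-CoA from citrate, measured 168 to 181 CPM in TG and 184 to 206 CPM in WT, ranges that did not overlap, with a fold of -0.15 that was not called (adjusted p 0.210). Acss2, which makes acetyl-CoA from acetate, had a fold of 0.17 (adjusted p 0.401). Me1, malic enzyme, a source of NADPH, measured 0.456 to 1.000 CPM in TG and 1.04 to 2.99 CPM in WT, with a fold of -1.17 ± 0.40 and an adjusted p of 0.0543, and 65.9% of its 75-base stretches were shared with other genes, of which Rwdd2a averaged 1.33 CPM in TG and 0.748 CPM in WT and the other 3 were at 0 in every library. Thrsp, a gene of lipogenic tissue, had 0 counts in all 8 libraries, which allows a level of up to 0.169 to 0.240 CPM, depending on the library, for counting error only.

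Desaturation and elongation held the lowest fold of all 37 genes and the call with the smallest adjusted p. Scd2 and Scd1 put the first double bond into saturated fatty acids. Scd2 measured 28.4, 20.7, 85.0 and 68.1 CPM in TG and 102, 103, 214 and 178 CPM in WT. The groups did not overlap, and replicates 3 and 4 were the higher pair in each. Its log2 fold change of -1.56 ± 0.54 was not called (adjusted p 0.101) with the group as the only term. It was called with a term for Y-linked counts, with the replicate block, by DESeq2, by limma voom and within each kind of library, 6 of 19 alternatives. Scd1 (ENSMUSG00000037071, chr19:44382894-44399154, minus strand), the main form in liver and fat, measured 0.125, 0.0703, 0.677 and 0.380 CPM in TG and 0.399, 0.556, 0.602 and 0.149 CPM in WT, too low to pass the filter. The groups overlapped, and in all 8 libraries Scd2 was far above Scd1.

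Elovl6 (ENSMUSG00000041220, chr3:129326004-129432144, plus strand), which lengthens palmitate to stearate, measured 17.4, 17.2, 17.5 and 19.97 CPM in TG and 39.05, 35.7, 33.3 and 29.6 CPM in WT. TG replicates 1 to 3 were nearly equal, TG replicate 4 was higher, and all WT libraries lay far above them. Its 1.91-fold fall (log2 -0.93 ± 0.10, adjusted p 0.000243) was called in all 19 alternative settings. Elovl1 (ENSMUSG00000006390, chr4:118284346-118290150, plus strand), which makes very long saturated chains for sphingolipids, measured 28.4, 29.4, 30.2 and 32.3 CPM in TG and 41.4, 37.1, 38.2 and 34.2 CPM in WT. TG replicate 4 came closest to WT replicate 4, without overlap. The fall was 1.25-fold (log2 -0.33 ± 0.09, adjusted p 0.0211). Elovl5 and Elovl7, further elongases, had folds of -0.16 and -0.21 (adjusted p 0.283 and 0.141). Fads1 and Fads2, the desaturases of polyunsaturated fatty acids, had folds of -0.42 and -0.32 (adjusted p 0.0911 and 0.148), and neither was called.

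**Figure D4:**
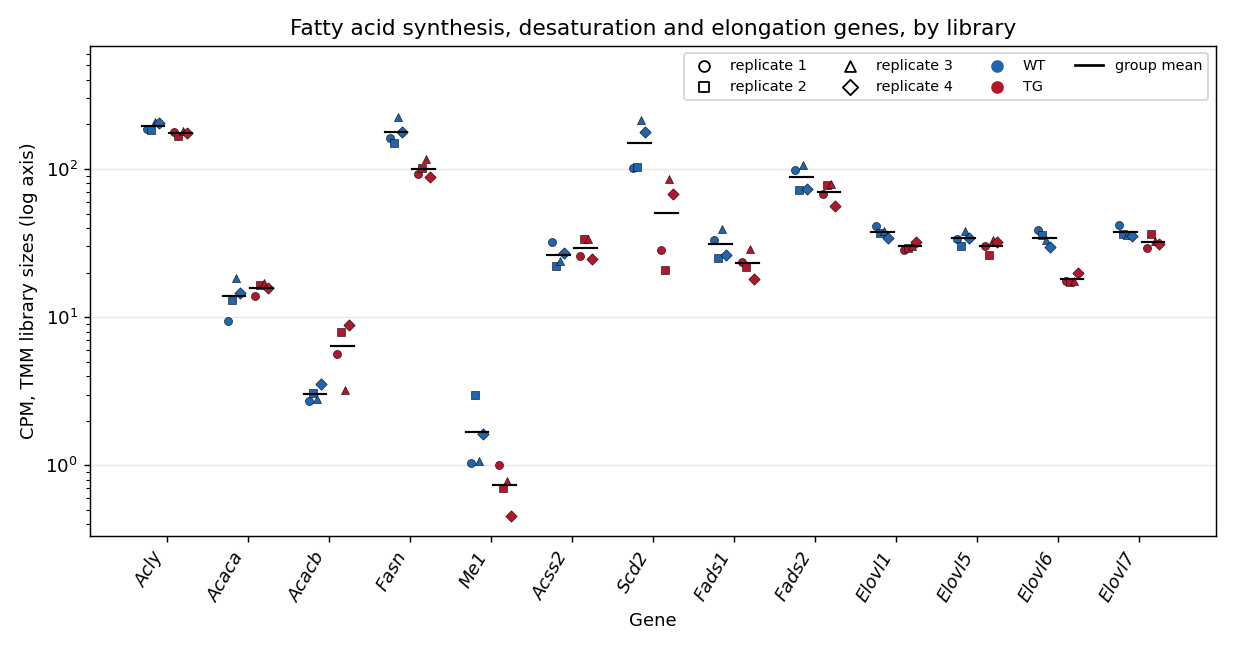
CPM (y axis, log scale) of the 13 tested genes of fatty acid synthesis, desaturation and elongation (x axis) in each WT library (blue) and TG library (red), with the replicate number as marker shape and the group mean as a bar. Fasn, Scd2 and Elovl6 have all red points below the blue ones, and for Acacb 3 of 4 red points lie above them.

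Per length, the most abundant gene was Hmgcs1, with 25.8 CPM per kb of exon in TG and 51.0 in WT. In WT, Scd2, Srebf2 and Insig1 followed at 19.8, 19.5 and 19.3 CPM per kb, close together against the spread of Scd2 and Insig1 between libraries. In TG, Srebf2 was next at 16.6 CPM per kb and Scd2 stood at 6.72. Fdps, at 0.246 in TG and 0.528 in WT, and Me1, at 0.12 and 0.275, had some of the lowest CPM per kb among the tested genes, as did Acacb at 0.632 and 0.298. Other genes shared 34.7% of the 75-base stretches of Fdps and 65.9% of those of Me1, and how such reads were counted is not given in the sources used here. Summed CPM in TG was 61.6% of WT for sterol synthesis, 62.0% for desaturation and elongation, 78.2% for fatty acid synthesis and 84.3% for the regulators. Hmgcs1 held 24.5% of the sterol sum in TG and 29.9% in WT, and Acly 53.5% and 46.5% of that of fatty acid synthesis. Scd2 held 19.8% of the sum of desaturation and elongation in TG and 36.2% in WT, where Fads2 held 27.5% and 21.3%.

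Other genes of lipid handling were read from lists of 83 genes, of which 75 were tested, 11 called higher and 9 lower, with a median log2 fold change of 0.02. The shares over all genes tested were 8.26% higher and 9.65% lower. With total counts 10 were higher and 2 lower, and the 8 lost calls were Hsd17b12, Mlx, Nus1, Aacs, Rnf145, Abca1, Gramd1a and Agpat1 (adjusted p 0.0593 to 0.356). Of 20 tested genes of sterol uptake, efflux and storage, 6 were called higher and 1 lower, with a median of 0.21. Abcg5 and Abcg8 encode the subunits of the pump that returns sterol to the gut lumen. Abcg5 measured 7.5, 7.66, 6.94 and 8.81 CPM in TG and 5.43, 3.41, 4.68 and 4.01 CPM in WT. Abcg8 measured 19.2, 18.5, 20.3 and 34.8 CPM in TG and 13.7, 11.3, 8.69 and 12.1 CPM in WT. Both had all TG libraries above WT, and they rose with log2 fold changes of 0.82 ± 0.17 and 1.02 ± 0.21 (adjusted p 0.00608 and 0.00953). Cyp27a1, which makes an oxysterol from cholesterol, measured 8.57 to 13.99 CPM in TG and 4.61 to 6.71 CPM in WT and rose with a log2 fold change of 0.85 ± 0.17 (adjusted p 0.00527). The other 4 were named after their values were seen. Npc1l1, the sterol importer of the brush border, Abca1, an efflux pump, and Nr1h3, the oxysterol receptor LXR-alpha, rose, with folds of 0.93, 1.11 and 0.58 (adjusted p 0.00996, 0.0468 and 0.0367), and Gramd1a, a sterol transporter at membrane contacts, fell, with a fold of -0.96 (adjusted p 0.0461). Gramd1a and Abca1 each lost their call in 6 of 8 fits with 1 library left out, Nr1h3 in 5 and Npc1l1 in 0, and Abca1 and Nr1h3 also lost it with the replicate block. The 5 enterocyte markers named above were also higher in TG, and their part in these folds was not tested.

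Glycerolipid synthesis and storage had 4 of 14 tested genes called higher and 2 lower, with a median of 0.14. Dgat2 and Dgat1, which add the last acyl chain of triglyceride, measured 6.48 to 10.02 and 18.7 to 24.7 CPM in TG and 2.16 to 4.55 and 12.8 to 17.2 CPM in WT. Both rose without overlap, with log2 fold changes of 1.504 ± 0.24 and 0.56 ± 0.12 (adjusted p 0.00150 and 0.00660). Mogat2, the monoacylglycerol acyltransferase of the intestine, rose with a log2 fold change of 1.29 ± 0.25 (adjusted p 0.00421), from 1.14 to 1.49 CPM in WT to 2.5 to 4.18 CPM in TG. Named after their values were seen, Plin2, a lipid droplet coat protein, rose with a fold of 0.77 (adjusted p 0.0162), and Agpat1 and Agpat4, acyltransferases of phosphatidic acid synthesis, fell with folds of -0.28 and -0.81 (adjusted p 0.0237 and 0.0104). The call of Agpat1 was lost without TG replicate 1, 2 or 3, and that of Plin2 with the replicate block. Alpi, Apob, Mttp, Apoa4 and Slc5a1, the enterocyte markers higher in TG, moved with these rises too, with log2 fold changes of 2.56, 1.07, 0.59, 2.79 and 0.42, and their part was not tested.

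Of the remaining lists, SREBP processing had 1 of 8 tested genes called lower (12.5%, near the 9.65% of all genes), Rnf145, a ubiquitin ligase of the sterol response (log2 fold change -0.49 ± 0.11, adjusted p 0.00759). The isoprenoid branch had 2 of 14 called lower (14.3%), also near that share. These were Nus1, a subunit of the enzyme that makes dolichol chains (-0.45 ± 0.09, adjusted p 0.00393), and Aacs, which activates acetoacetate for lipid synthesis (-0.66 ± 0.13, adjusted p 0.00545). Of 12 tested genes of fatty acid synthesis and activation, 1 was called lower and 1 higher (8.33% each), near the 9.65% and 8.26% of all genes. Mlx, the partner of the glucose-responsive factor ChREBP, fell (-0.45 ± 0.09, adjusted p 0.00543). Acsl6, an acyl-CoA synthetase, rose (1.88 ± 0.54, adjusted p 0.0299). It measured 1.37 to 2.58 CPM in TG and 0.160 to 1.34 CPM in WT and lost its call when any 1 of 7 libraries was left out. Of 7 other tested genes of desaturation and elongation, 2 were called lower. Fads3, a desaturase, measured 2.12, 2.25, 2.31 and 2.35 CPM in TG and 7.98, 8.56, 6.69 and 5.13 CPM in WT. Every TG library was below every WT library, and the log2 fold change was -1.65 ± 0.20 (adjusted p 0.000444). Hsd17b12, the ketoreductase of chain elongation, had a fold of -0.35 ± 0.10 (adjusted p 0.0316), which was not called without TG replicate 1, TG replicate 2, WT replicate 1 or WT replicate 3 (adjusted p from 0.0534 to 0.121).

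**Figure D5:**
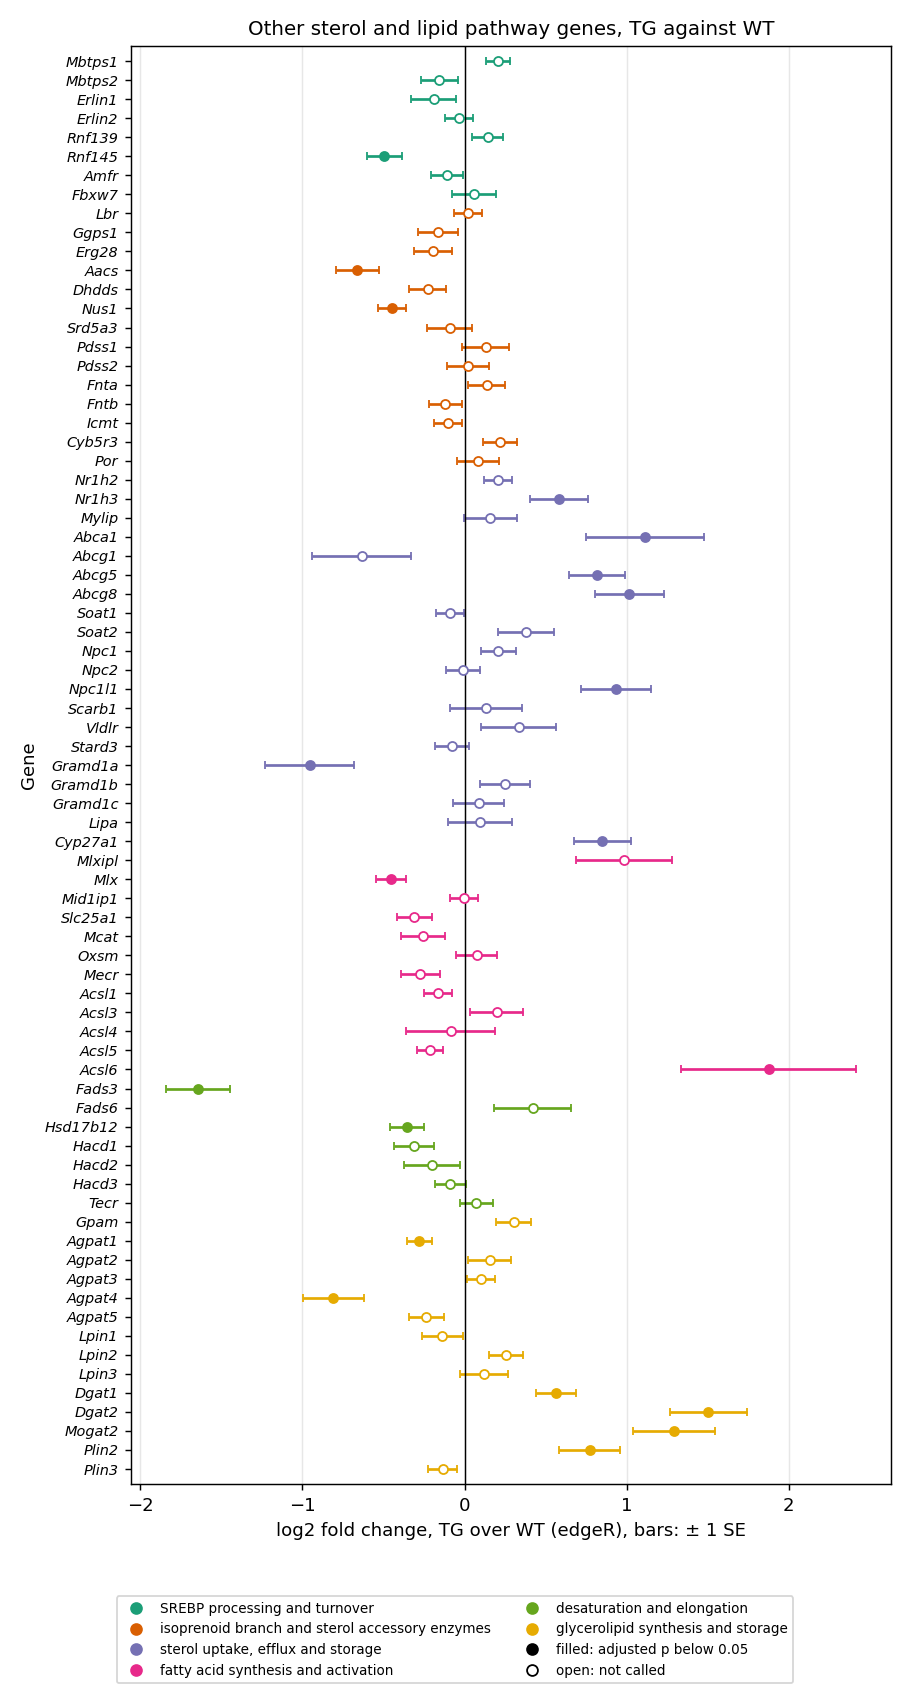
Log2 fold change of TG over WT (x axis) for the 75 tested genes of the other lipid lists (y axis), coloured by list, with ± 1 SE bars and filled points for an adjusted p below 0.05. The 11 filled points right of 0 include 6 of sterol uptake, efflux and storage and 4 of glycerolipid synthesis, and Fads3 is the filled point farthest left.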

How the data were processed

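RNA of sorted Paneth cells was made into libraries with a stranded mRNA kit. What the authors deposited was 1 table of raw counts, in whole numbers, for each Ensembl gene and library. The submitters' processing notes name FastQC 0.12.0, STAR 2.7.0a, DESeq2 and the build mm39. Not given in the sources used here were the counting tool, its annotation, its use of strand and its treatment of reads with several alignments. All 8 per-library columns were used.

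Symbols, positions and exon lengths came from GENCODE M39 on GRCm39, which matched 54749 of 55414 IDs, and the other 665 held 0.0114% of the counts. Tests used edgeR 4.0.16 (R 4.3.3) on all 8 libraries, as quasi-likelihood fits with robust dispersion, TMM scaling, filterByExpr by group, the group as the only term and Benjamini-Hochberg adjustment over all 11929 genes tested, at 0.05. Levels are CPM, counts per 1e+06 counts of the TMM-scaled library size, and SE is the log2 fold change over the square root of F. Whether folds depend on Y-linked counts was tested as an interaction. The fit was also run on simulated data, whose outcome is not reported here. Replicates differed by more than sampling noise (chi-square per degree of freedom at least 5.20), so each library counted once. Depth was 13107397 to 16218434 counts per library.

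The members and gene lists were chosen with earlier results of these data known. Values in all libraries, identity and position are given for members past the threshold and for Srebf1, Srebf2, Insig1, Hmgcs1, Sqle, Fasn, Acaca and Scd1, and up to 3 called genes with the smallest p are named from each other list. The share of 75-base stretches of the canonical transcript found in other genes' transcripts, on either strand, was computed per member. Promoter letters were read from the GRCm39 genome. Alternatives were RLE factors, total counts, factors without alpha-defensin genes and Lyz1, no filter, 1 CPM in 4 libraries, DESeq2 1.42.0, limma 3.58.1 voom with quality weights, a replicate block, a term for Y-linked counts, only the libraries with or without them, and each library left out.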

Additional observations from a re-analysis of the deposited data

Results flagged for a closer look

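Over the members and named lipid genes, 114 groups of 4 libraries were examined for a library far from the other 3, by the gap to its nearest neighbour as a share of the group's range, against Dixon's critical value for 4 values. Chance flags about 5% of such groups, or 1 in 20, and 6 passed. Srebf1 stood out in TG replicate 3, with a ratio of 0.891, at 62.1 CPM against 53.3 to 54.3 CPM in the other TG libraries. Elovl6 stood out in TG replicate 4, with a ratio of 0.884, at 19.97 CPM against 17.2 to 17.5 CPM. Abcg8 did so in TG replicate 4, with a ratio of 0.889, at 34.8 CPM against 18.5 to 20.3 CPM. Acsl6 did so in TG replicate 4, with a ratio of 0.831, at 2.58 CPM against 1.37 to 1.58 CPM, and in WT replicate 4, with a ratio of 0.958, at 1.34 CPM against 0.160 to 0.209 CPM. Dgat2 stood out in WT replicate 3, with a ratio of 0.866, at 4.55 CPM against 2.16 to 2.48 CPM. In Srebf1, Elovl6, Acsl6 in WT and Dgat2 the library lay on the side of the other group, and Abcg8 and Acsl6 in TG lay away from it.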

How the results depend on the processing

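RLE factors, factors without alpha-defensin genes and Lyz1, and a filter of 1 CPM in 4 libraries gave 16 lower and 1 higher members, as reported. Total counts without factors gave 5 lower (2.2% of all genes tested), and only the libraries without Y-linked counts gave 10 lower (5.29%). The 1 higher call, Acacb, became 0 with limma voom, with only the libraries with Y-linked counts and without TG replicate 2. In these, an unadjusted p below 0.05 gave 2, 0 and 1 members higher, and the share of all genes at that p is not given here. No filter gave 21 lower (6.28% of all genes tested), DESeq2 20 (10.8%), limma voom 21 (11%), a term for Y-linked counts 19 (9.49%) and only the libraries with Y-linked counts 11 (0.857%). Leaving out 1 library at a time gave 5 to 24 lower (4.61 to 9.76% of all genes) and 0 to 1 higher members. The replicate block gave 21 lower (9.76% of all genes) and 1 higher, adding Hmgcs1, Mvk, Cyp51, Scd2 and Fads1 and losing none. Deviations of same-numbered libraries correlated at -0.016, 0.06, 0.29 and 0.22 in pairs 1 to 4, not all above 0.1, and no label says what the number marks, so they were not treated as pairs. Same-numbered libraries of both groups were alike in having or lacking Y-linked counts. Over the 37 members and all alternatives, 590 values kept their direction and side of the threshold, 69 fell short of it and 41 passed it newly. The other 3 changed sign without being called, Tm7sf2 to 0.42 with only the libraries with Y-linked counts and to 0.086 without WT replicate 1 (-0.42 to 0.086 with 1 library left out at a time), and Insig1 to 0.055 with only the libraries without Y-linked counts. For the 20 called genes of other lists, 309 values kept their direction and side and 71 fell short, 18 of them with only the libraries with Y-linked counts and 3 (Nr1h3, Abca1 and Plin2) with the replicate block. Sterol folds were below 0 for all 19 genes in every setting but only the libraries with Y-linked counts and without WT replicate 1, where 18 were. The causes were not tested. Fits within 1 kind of library rest on 2 libraries a group, and Scd1 and Thrsp were too low to test at this depth.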
